A study of Mus musculus with 24 samples.

Results

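Transcript levels of 10 genes of insulin signalling and glucose transport were followed in the mouse heart after a treadmill bout at 2 times of day. The genes are the receptors Insr and Igf1r, the adaptors Irs1 and Irs2, the phosphoinositide 3-kinase (PI3K) subunit Pik3r1, the transcription factors Foxo1 and Foxo3, and the transporters Slc2a1, Slc2a4 and Slc2a12. They were chosen by symbol, and each matched 1 Ensembl identifier among the 52350 genes of the count tables. All 10 passed the filter on low counts that left 15294 genes for testing.

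Poly-A RNA was sequenced from hearts of 24 male wild-type C57Bl/6 mice aged 12 weeks, with 6 mice in each of 4 groups. ZT12-EX mice ran on a treadmill for 60 min at 10 m/min and 0% grade at zeitgeber time (ZT) 12, lights off and the start of the active phase, and ZT12-SED mice stayed sedentary at that time. ZT0-EX mice ran the same bout at ZT0, lights on and the start of the rest phase, and ZT0-SED mice stayed sedentary then. All mice lived in 12 h of light and 12 h of darkness, and the labels give every mouse as a biological replicate. Replicates 1 to 3 of each group were sequenced on flow cell 1 and replicates 4 to 6 on flow cell 2. The interval between the bout and the collection of the heart, and whether sedentary mice were also habituated to the treadmill, stand in none of the sources used here.

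Insulin and insulin-like growth factors bind the receptor tyrosine kinases encoded by Insr and Igf1r, which phosphorylate the adaptor proteins IRS1 and IRS2. The adaptors recruit PI3K through its regulatory subunit p85α, the product of Pik3r1, and the kinase AKT then acts downstream. AKT moves vesicles that carry GLUT4, the insulin-responsive transporter encoded by Slc2a4, to the cell surface, and keeps FOXO1 and FOXO3 out of the nucleus. Slc2a1 encodes GLUT1, a transporter that works without insulin, and Slc2a12 encodes GLUT12. In several tissues Irs2 is itself a target of FOXO factors and of cAMP signalling. Transcript levels do not report receptor phosphorylation or the place of a transporter in the cell.

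The libraries held 10810284 to 20974196 counts in ZT12-EX, 9697334 to 20424649 in ZT12-SED, 16487563 to 19948098 in ZT0-EX and 13822708 to 23067191 in ZT0-SED. All 8 cardiomyocyte markers were detected, with a mean of 11.1 to 13.5 on the log2 CPM scale (CPM is counts relative to the library total, here scaled by TMM) in every library. Mitochondrially encoded genes took 25.5% to 55.1% of counts on flow cell 1 and 2.71% to 23.7% on flow cell 2. Libraries ZT12-EX 6, ZT12-SED 6, ZT0-EX 4, 5 and 6 and ZT0-SED 6 carried skeletal muscle transcripts, where the 12 skeletal muscle markers averaged a log2 CPM of 5.27 to 7.17, against at most 0.767 in the others. Libraries ZT12-EX 4, ZT12-SED 1 and ZT12-SED 2 correlated least with the rest. Where leaving out either set of libraries changes a call for the genes named above, the value without those libraries is given. It is also given for the pathway genes named below that passed and then missed the threshold. Tissue RNA cannot tell fewer cells of a type from less RNA per cell.

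Among these genes Irs2 was the only one that passed the test for an exercise effect, and it did so at ZT0. Pik3r1 and Foxo3 passed the test for time of day in sedentary mice, both higher at ZT12. The receptors, Irs1, Foxo1 and the 3 transporters passed in no comparison. Stretches of DNA at the annotated starts of the 3 genes that passed are shown first, since transcription is annotated to begin there. Pik3r1 has 2 such starts in the table, and which of them the heart uses was not tested. They come from the RefSeq table of the GRCm38.p6 build, run 5′ to 3′ over 250 bases before and 50 after the annotated start, and are in lower case with matches to the motifs searched in capitals.
Irs2, chr8:11008880-11009179, minus strand: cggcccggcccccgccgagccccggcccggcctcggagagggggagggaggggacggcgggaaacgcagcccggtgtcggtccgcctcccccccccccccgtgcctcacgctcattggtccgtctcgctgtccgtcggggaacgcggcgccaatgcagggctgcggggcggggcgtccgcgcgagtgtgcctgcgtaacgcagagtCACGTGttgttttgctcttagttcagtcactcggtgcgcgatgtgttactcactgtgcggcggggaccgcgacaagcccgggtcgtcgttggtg
Pik3r1, chr13:101692581-101692880, minus strand: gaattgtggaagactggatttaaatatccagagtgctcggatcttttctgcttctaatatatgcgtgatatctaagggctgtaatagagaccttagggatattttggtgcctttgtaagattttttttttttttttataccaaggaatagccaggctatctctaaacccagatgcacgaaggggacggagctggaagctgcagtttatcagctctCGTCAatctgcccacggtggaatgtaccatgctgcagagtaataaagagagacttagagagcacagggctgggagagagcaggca
Pik3r1, chr13:101768168-101768467, minus strand: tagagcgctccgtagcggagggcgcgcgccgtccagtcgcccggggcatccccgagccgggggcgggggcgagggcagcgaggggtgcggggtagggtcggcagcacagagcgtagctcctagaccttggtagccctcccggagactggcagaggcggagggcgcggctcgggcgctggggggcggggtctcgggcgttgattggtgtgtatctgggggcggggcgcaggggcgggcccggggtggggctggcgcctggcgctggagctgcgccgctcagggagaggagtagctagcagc
Foxo3, chr10:42276646-42276945, minus strand: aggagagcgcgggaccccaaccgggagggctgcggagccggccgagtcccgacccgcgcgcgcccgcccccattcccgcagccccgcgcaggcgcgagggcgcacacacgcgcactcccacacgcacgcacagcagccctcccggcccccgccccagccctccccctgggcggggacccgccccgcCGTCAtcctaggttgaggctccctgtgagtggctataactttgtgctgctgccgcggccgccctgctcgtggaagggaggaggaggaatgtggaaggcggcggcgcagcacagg

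The capitals in the Irs2 window mark an E-box, CACGTG, which is the element bound by the clock factors BMAL1 and CLOCK and by other basic helix-loop-helix proteins, 44 bases before the start. Those in the first Pik3r1 window and in the Foxo3 window mark the core of the cyclic AMP response element, TGACG, read on the other strand as CGTCA, 35 and 64 bases before the start. Across the 32851 promoters of the table, 7.15% held the E-box and 20.8% this core on either strand. The other Pik3r1 window held none of the motifs searched. The table had 9 windows for 8 of the 10 genes, 2 of them for Pik3r1. The E-box was in 2 of the 9, those of Irs1 and Irs2, and the core in 3, those of Irs1, Pik3r1 and Foxo3, and in Irs1 the 2 matches share letters and begin 115 and 118 bases before the start. The other 5 motifs were in none of the 9 windows. These were the FOXO site GTAAACA, in 3.65% of all promoters, the full cyclic AMP response element TGACGTCA (1.79%), the D-box TTATGNAA (3.38%), the single arm TGTTCT of the glucocorticoid response element (19.0%) and the NR4A site AAAGGTCA (1.51%). Each motif was searched on both strands, and the full element contains the core. The 2 genes with no window in the RefSeq table are Insr and Slc2a4.

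The first question was what a bout did at the start of the rest phase. Irs2 rose: CPM was 12.5 at the lowest, 23.9 at the median and 40.1 at the highest in ZT0-EX hearts, against 2.12, 3.25 and 4.2 in ZT0-SED hearts. Every exercised heart was above every sedentary heart, and therefore also within each flow cell. The mean was 25.5 ± 13.0 CPM in ZT0-EX and 3.14 ± 0.747 in ZT0-SED (SD, n = 6 each). This was a log2 fold change of 2.99 ± 0.39 (SE), or 7.96-fold, with an adjusted p of 0.000107 in edgeR's quasi-likelihood test. Of all genes tested, 1.08% passed in this comparison (0.791% higher and 0.288% lower), and the 2 groups did not overlap for 1.6%. Exercised hearts varied more than sedentary ones, with replicates 2, 4 and 5 at 40.1, 39.4 and 31.3 CPM and replicates 1, 3 and 6 between 12.5 and 16.4 CPM.

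**Figure D1:**
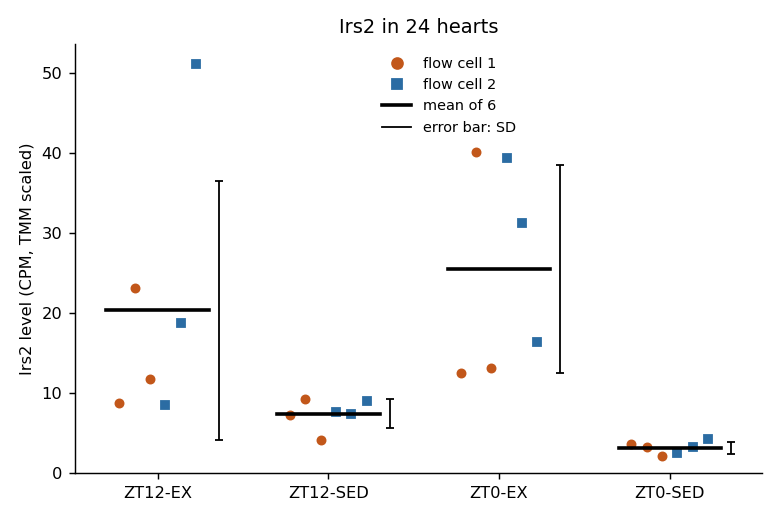
Irs2 level in each of the 24 hearts, in CPM on a linear axis, by group, with the flow cell of each heart marked, a bar at each group's mean and the SD beside it (n = 6). All 6 ZT0-EX hearts lie above all 6 ZT0-SED hearts, while ZT12-EX and ZT12-SED overlap.

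As a difference of mean log2 CPM, Irs2 was 2.64 higher on flow cell 1 and 3.03 higher on flow cell 2 in exercised hearts at ZT0 (n = 3 per group on each). All 3 ZT0-EX hearts of flow cell 2 carried skeletal muscle transcripts, against 1 of the 3 ZT0-SED hearts. Without the libraries that carried them the log2 fold change was 2.90 (edgeR adjusted p = 0.00266). That fit holds ZT0-EX hearts of flow cell 1 only. Irs2 passed under 15 of 16 alternatives, and missed the threshold on flow cell 2 alone, at 3.09 with an edgeR adjusted p of 0.0824.

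The other 9 genes also had positive log2 fold changes at ZT0, none of which passed, though Slc2a4 turned negative under 2 alternatives. The median over the 10 genes was 0.47, against -0.01 over all genes tested. Foxo3 came nearest, at 0.66 ± 0.18 (SE, edgeR adjusted p = 0.0907). It had 37.8, 52.4 and 58.0 CPM (lowest, median and highest) in ZT0-EX hearts and 23.5, 30.2 and 42.5 CPM in ZT0-SED hearts, with 4 of 6 exercised hearts above every sedentary one. Foxo3 passed under 4 of the 16 alternatives, including the fit without the 3 least correlated libraries (edgeR adjusted p = 0.029).

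Pik3r1 averaged 77.5 ± 13.2 CPM in ZT0-EX and 51.1 ± 16.2 in ZT0-SED, a log2 fold change of 0.60 ± 0.25 (SE, edgeR adjusted p = 0.403). The receptors were at similar sizes of change, Insr at 0.54 ± 0.28 (adjusted p = 0.506) and Igf1r at 0.52 ± 0.22 (adjusted p = 0.416). Insr lay between 65.3 and 99.5 CPM in ZT0-EX hearts and spread over 28.5 to 86.8 CPM in ZT0-SED hearts, and Igf1r between 14.4 and 20.9 CPM in ZT0-EX against 8.47 to 17.1 CPM in ZT0-SED. The ranges of both receptors overlapped. Irs1, the other main adaptor, was held within 23.2 to 26.5 CPM in all ZT0-EX hearts and ran over 9.62 to 25.9 CPM in ZT0-SED hearts (log2 fold change 0.43 ± 0.26, adjusted p = 0.54). Foxo1 stood at 0.08 ± 0.12 (adjusted p = 0.79).

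The transporters had small estimates at ZT0. Slc2a4 had 143, 198 and 229 CPM (lowest, median and highest) in ZT0-EX hearts and 148, 176 and 220 CPM in ZT0-SED hearts, with almost full overlap. Its log2 fold change was 0.07 ± 0.23 (SE, edgeR adjusted p = 0.919). Slc2a1 was at 0.25 ± 0.20 (adjusted p = 0.622) and Slc2a12 at 0.32 ± 0.21 (adjusted p = 0.567).

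At ZT12, the start of the active phase, none of the 10 genes passed the exercise test, where 0.294% of all genes did (0.19% higher and 0.105% lower). Irs2 had the largest estimate, a log2 fold change of 1.42 ± 0.37 (SE), or 2.68-fold, with an edgeR adjusted p of 0.113. It had 8.54, 15.2 and 51.2 CPM (lowest, median and highest) in ZT12-EX hearts and 4.06, 7.49 and 9.22 CPM in ZT12-SED hearts. Only 4 of 6 exercised hearts exceeded every sedentary heart, and the highest value belonged to ZT12-EX 6, a library with skeletal muscle transcripts. Without the libraries that carried those transcripts the estimate was 0.98 (edgeR adjusted p = 0.162). It was 1.86 without the 3 least correlated libraries (edgeR adjusted p = 0.0472), and DESeq2 gave an adjusted p of 0.0202. Over all 16 alternatives the adjusted p ran between 0.0202 and 0.852.

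Irs1 had the most negative estimate at ZT12, -0.45 ± 0.26 (SE, edgeR adjusted p = 0.368), and Foxo1 a positive one of 0.30 ± 0.12 (adjusted p = 0.265). Irs1 had 5.19, 17.5 and 20.1 CPM (lowest, median and highest) in ZT12-EX hearts and 10.7, 18.8 and 36.4 CPM in ZT12-SED hearts. Foxo1 was between 19.1 and 27.6 CPM in ZT12-EX and between 15.9 and 22.4 CPM in ZT12-SED. The remaining estimates lay between -0.21 for Pik3r1 (adjusted p = 0.655) and 0.29 for Slc2a4 (adjusted p = 0.493). The signs of Insr, Irs1, Pik3r1, Foxo3 and the 3 transporters turned under at least 1 alternative.

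**Figure D2:**
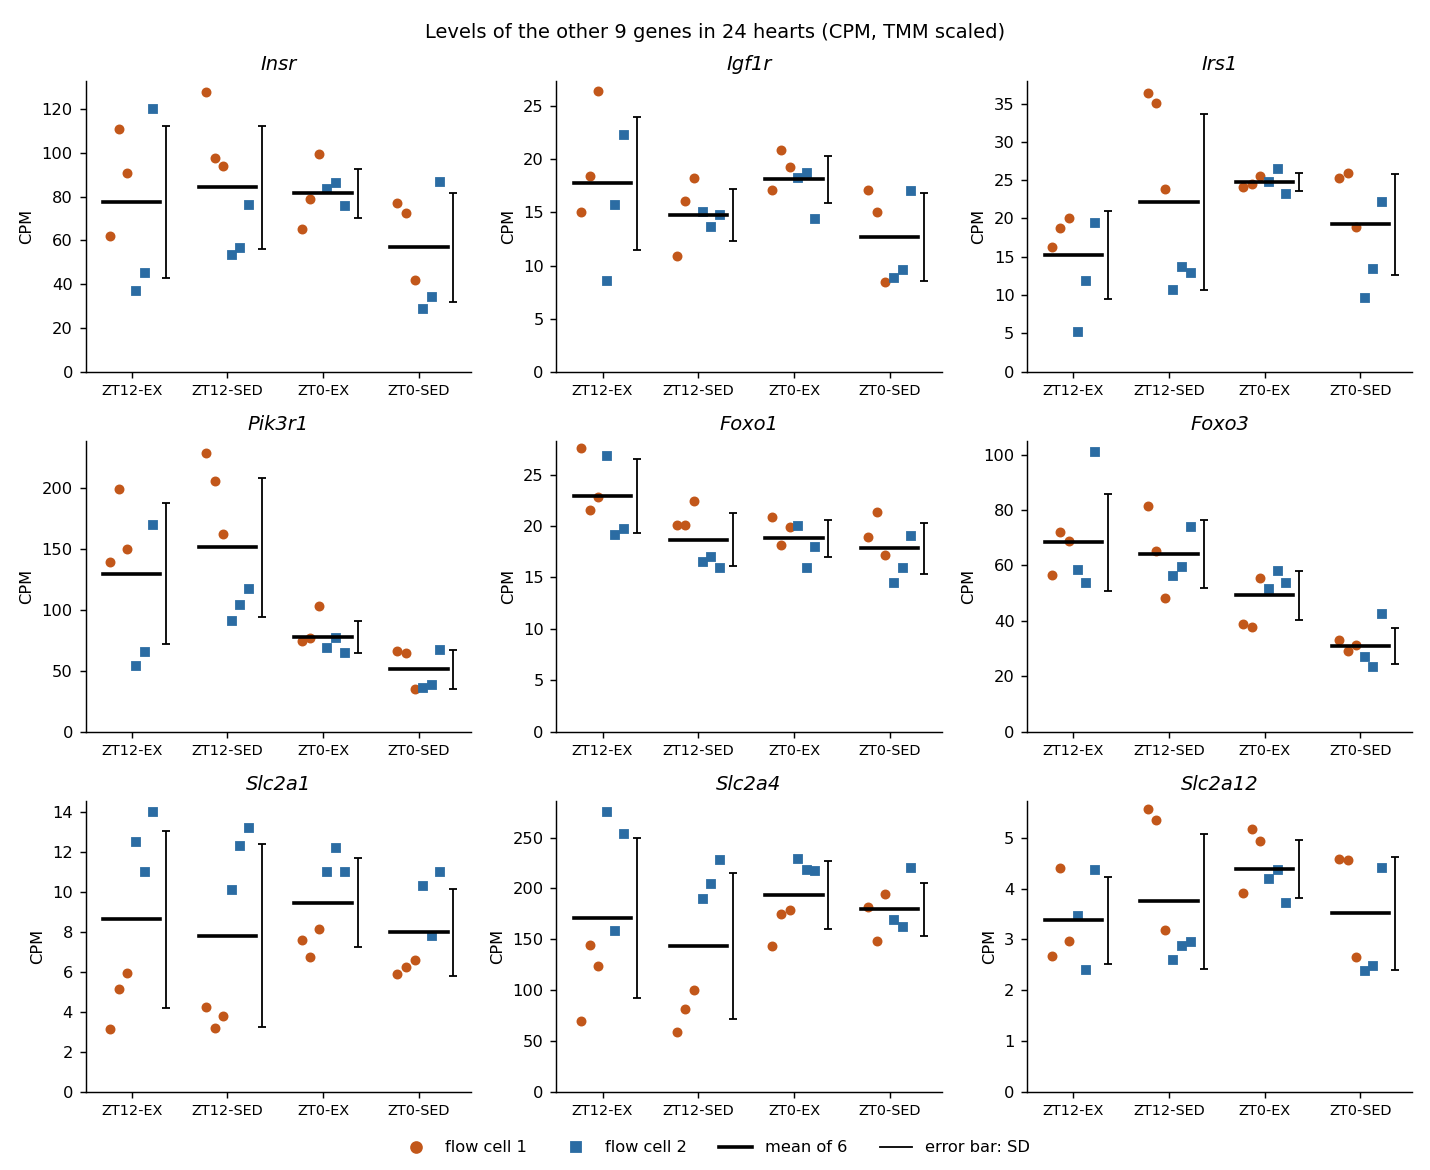
CPM of each of the other 9 genes in every heart by group, on linear axes that start at 0, with the flow cells marked, a bar at each group's mean and the SD beside it (n = 6). Pik3r1 and Foxo3 in ZT12-SED lie above all ZT0-SED hearts. The Slc2a1 values of all 4 groups split by flow cell, as do the Slc2a4 values of all groups but ZT0-SED.

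Whether the exercise effect differed between times was tested directly, as the effect at ZT12 minus that at ZT0. None of the 10 genes passed, and neither did any other gene (0% of those tested, with 1226 at an unadjusted p under 0.05). DESeq2 called 5 genes and limma-voom 0. For Irs2 the difference was -1.57 ± 0.52 (SE, edgeR adjusted p = 0.571), a smaller estimate at ZT12, and the flow cells gave -1.62 (the first) and -1.70 (the second). Over 15 alternatives it lay between -1.92 and -1.13, with adjusted p between 0.435 and 0.996. Irs1 (-0.88 ± 0.36), Pik3r1 (-0.81 ± 0.35) and Foxo3 (-0.57 ± 0.25) each had an edgeR adjusted p of 0.571. The sizes of the exercise effect at the 2 times are therefore not shown to differ for any of these genes.

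**Figure D3:**
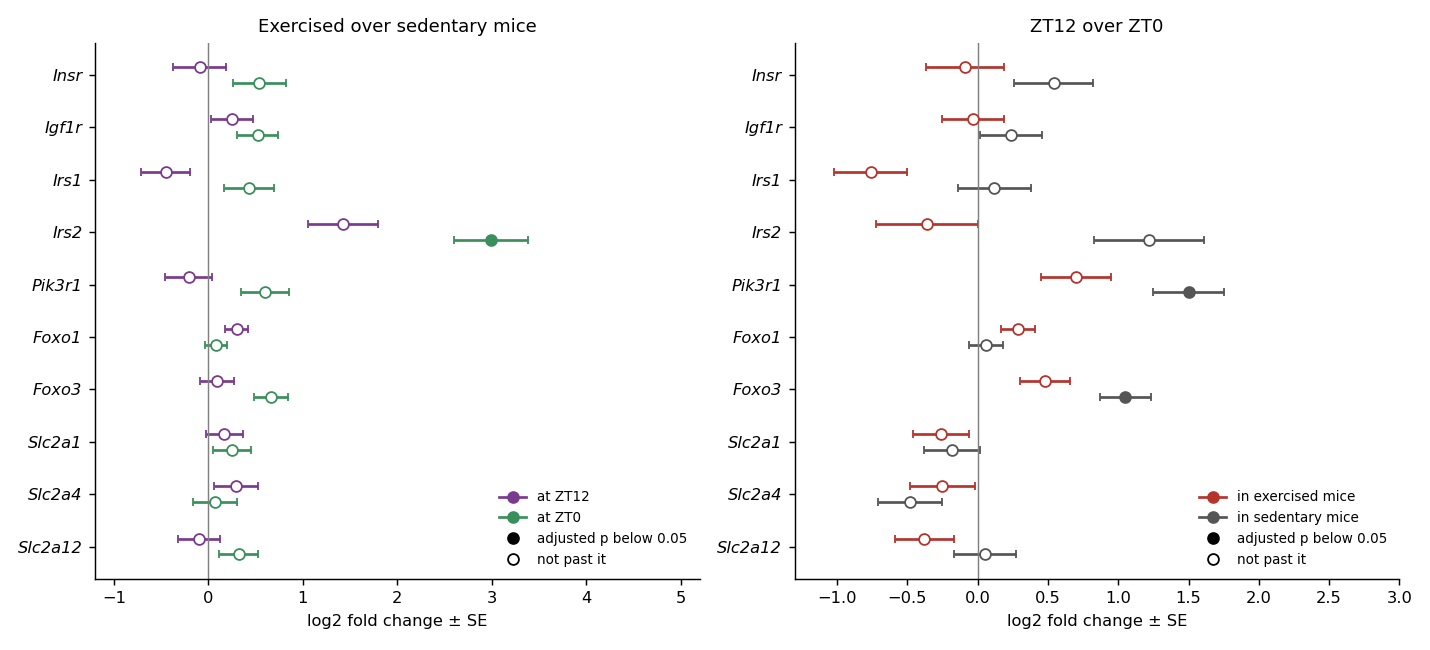
Log2 fold change of each gene with its standard error in the 2 exercise comparisons and the 2 time-of-day comparisons, with filled points for those past an adjusted p of 0.05. Irs2 passed for exercise at ZT0 (2.99), and Pik3r1 (1.50) and Foxo3 (1.05) for time of day in sedentary mice.

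In sedentary mice, ZT12 against ZT0 asks how the genes differ between the start of the active phase and the start of the rest phase without a bout. Pik3r1 and Foxo3 were higher at ZT12, and 5.2% of all genes passed in this comparison (2.46% higher and 2.74% lower). Pik3r1 had 90.5, 140 and 229 CPM (lowest, median and highest) in ZT12-SED hearts and 35.4, 51.2 and 67.0 CPM in ZT0-SED hearts. No ZT0 heart reached the lowest ZT12 heart. The log2 fold change was 1.50 ± 0.25 (SE), or 2.83-fold, with an edgeR adjusted p of 0.000833. Foxo3 had 48.3, 62.4 and 81.5 CPM in ZT12-SED hearts and 23.5, 30.2 and 42.5 CPM in ZT0-SED hearts, again without overlap. Its log2 fold change was 1.05 ± 0.18 (SE), or 2.06-fold, with an edgeR adjusted p of 0.00112. The groups did not overlap for 1.7% of all genes tested. This comparison and exercise at ZT0 share the ZT0-SED libraries.

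Flow cells 1 and 2 gave differences of mean log2 CPM of 1.89 and 1.20 for Pik3r1, and of 1.03 and 1.06 for Foxo3. On flow cell 1, mitochondrially encoded genes took 49.7 ± 7.87% of counts in ZT12-SED and 30.7 ± 4.62% in ZT0-SED (SD, n = 3 each). The Spearman correlation between a gene's GC content and its level relative to the mean of all libraries averaged -0.80 in ZT12-SED and -0.20 in ZT0-SED there. On flow cell 2 these were 17.7 ± 3.04% and 17.0 ± 7.85% of counts, and 0.66 and 0.57. In separate fits, 6552 of 15071 genes passed on flow cell 1 and 35 of 15165 on flow cell 2. Neither Pik3r1 nor Foxo3 overlapped between the groups on either flow cell. This follows from their lack of overlap over all hearts, found for 1.7% of all genes. Both passed without the 3 least correlated libraries, at 1.28 for Pik3r1 (edgeR adjusted p = 0.00208) and 0.87 for Foxo3 (adjusted p = 0.00747), and without those with skeletal muscle transcripts, at 1.66 and 1.12. In fits to flow cell 2 alone, with 3 hearts per group, neither passed (edgeR adjusted p = 0.629 for Pik3r1 and 0.334 for Foxo3). Foxo3 was at 0.82 (adjusted p = 0.0552) with library totals and no TMM scaling, and at 1.86 (adjusted p = 0.000895) with offsets for GC content.

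Irs2 was also at a higher level in ZT12-SED than in ZT0-SED hearts, without passing (log2 fold change 1.22 ± 0.39, SE, edgeR adjusted p = 0.0607). Of the ZT12-SED hearts 5 of 6 exceeded every ZT0-SED heart. Flow cells 1 and 2 gave 1.13 and 1.27. It passed under 4 of 16 alternatives, among them the fit without the libraries with skeletal muscle transcripts (1.27, adjusted p = 0.0297), with adjusted p between 0.0143 and 0.999. Insr was at 0.54 ± 0.28 (adjusted p = 0.178), and at 0.77 without those libraries, where it passed (adjusted p = 0.0221; over 16 alternatives 0.0221 to 0.999). Igf1r was at 0.24 ± 0.22 (adjusted p = 0.445), and Irs1, Foxo1 and Slc2a12 lay between 0.05 and 0.12.

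The 2 main glucose transporters of the heart differed between flow cells in this comparison. On flow cell 1, Slc2a4 had 58.7, 81.4 and 99.7 CPM in the 3 ZT12-SED hearts and 182, 148 and 195 CPM in the 3 ZT0-SED hearts, and on flow cell 2 it had 190, 204 and 228 CPM in ZT12-SED and 169, 162 and 220 CPM in ZT0-SED. It was lower at ZT12 in every heart of flow cell 1 and overlapped on flow cell 2. Slc2a1 did the same, with 3.2 to 4.22 CPM in ZT12-SED and 5.90 to 6.59 CPM in ZT0-SED on flow cell 1, and 10.1 to 13.2 CPM in ZT12-SED and 7.80 to 11.0 CPM in ZT0-SED on flow cell 2.

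Fitted to flow cell 1 alone, the log2 fold change was -1.16 for Slc2a4 (edgeR adjusted p = 0.00564) and -0.79 for Slc2a1 (adjusted p = 0.0255), in a fit where 6552 of 15071 genes passed. On flow cell 2 alone it was 0.16 and 0.28 (adjusted p = 0.999 for both). Over both flow cells it was -0.48 ± 0.23 for Slc2a4 (adjusted p = 0.153) and -0.18 ± 0.20 for Slc2a1 (adjusted p = 0.524). With offsets for GC content both estimates turned positive, to 0.048 and 0.21. Slc2a4 and Slc2a1 have a GC content of 55.7% and 54.7%, and the GC correlations of the flow cell 1 libraries are those given above. Levels of several marker lists differed in the same direction on flow cell 1. The mean log2 CPM was 11.4 in ZT12-SED and 12.3 in ZT0-SED over 8 cardiomyocyte markers, 5.32 and 6.28 over 8 endothelial markers, and -0.898 and 0.791 over the 6 adipocyte markers tested of 8. It was 3.92 and 4.9 over 6 erythroid, 3.92 and 4.49 over 6 macrophage and -1.5 and -0.772 over 12 skeletal muscle markers, and 6.48 and 6.49 over 6 fibroblast markers. No tested marker of these lists was at 0 in either group. Their part in the transporter values was not tested.

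**Figure D4:**
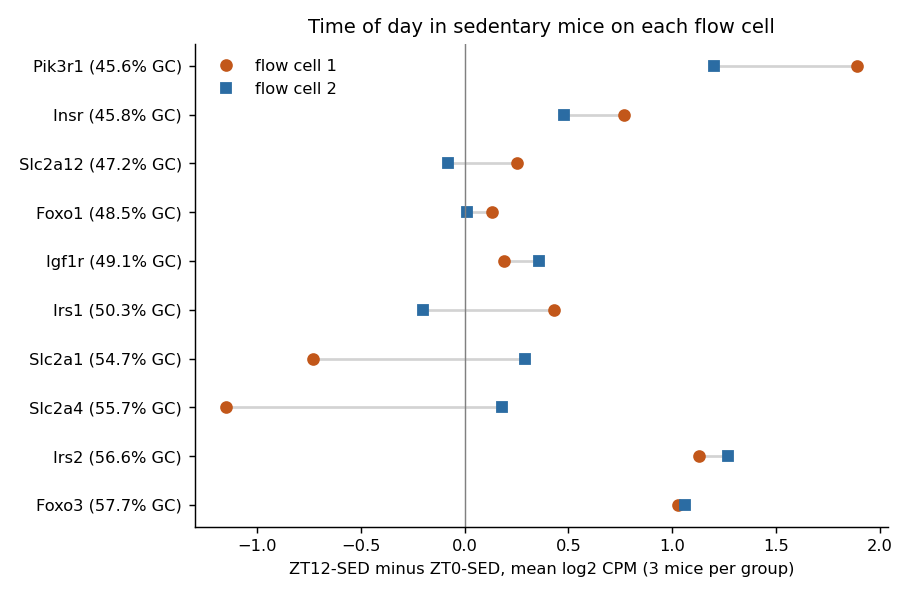
ZT12-SED minus ZT0-SED as a difference of mean log2 CPM for each gene, by flow cell (n = 3 hearts per group on each), with genes ordered by the GC content of their transcripts. Foxo3 (1.03 and 1.06) lay close together on the 2 flow cells, and Slc2a4 (-1.15 and 0.18) and Slc2a1 (-0.73 and 0.29) had opposite signs.

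In exercised mice, none of the 10 genes passed for time of day, where 1.65% of all genes did (0.811% higher and 0.837% lower). Irs1 had the largest negative estimate, -0.76 ± 0.26 (SE, edgeR adjusted p = 0.158). It had 5.19, 17.5 and 20.1 CPM (lowest, median and highest) in ZT12-EX hearts and 23.2, 24.7 and 26.5 CPM in ZT0-EX hearts. All ZT12-EX hearts lay below all ZT0-EX hearts, as the groups did for 1.1% of all genes in either direction. The adjusted p for Irs1 was 0.000898 with 2 surrogate variables, and over the 16 alternatives it ran between that value and 0.647. Pik3r1 was at 0.70 ± 0.25 (adjusted p = 0.182), with 54.3, 144 and 199 CPM in ZT12-EX hearts and 64.8, 75.6 and 103 CPM in ZT0-EX hearts. It passed with 2 surrogate variables (adjusted p = 0.00569) and without the 3 least correlated libraries (0.85, adjusted p = 0.0227). Foxo3 was at 0.48 ± 0.18 (adjusted p = 0.212) and Irs2 at -0.36 ± 0.36 (adjusted p = 0.691).

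The genes also differed in abundance. On a per-length scale, TPM (transcripts relative to the library's total) with mitochondrially encoded genes left out, Slc2a4 had the highest median of the 10, 177 TPM over the 24 hearts. Pik3r1 (29.8 TPM), Foxo3 (26.2) and Insr (21.7) followed, and their ranges over the hearts overlapped. Irs1 (9.62), Foxo1 (8.53), Slc2a1 (7.66), Irs2 (5.57), Igf1r (3.73) and Slc2a12 (3.48) were lower. The place of Irs2 moved with the group: its median was 9.18 TPM in ZT12-EX, 4.14 in ZT12-SED, 13.4 in ZT0-EX and 1.85 in ZT0-SED. In ZT0-EX it stood above Irs1, at 10.5 TPM, and in ZT0-SED it had the lowest median of the 10. Slc2a1 rests on 22 to 281 counts per library, Slc2a12 on 29 to 102 and Irs2 on 35 to 774. Slc2a12 shares 407 bases of exon with Tbpl1 on the other strand, whose counts summed to 6611 against 1513 for Slc2a12, and since the use of strand is not given, its values are uncertain.

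Over the 24 libraries, after the mean of each flow cell was subtracted, log2 CPM of Pik3r1 and Foxo3 had a Pearson correlation of 0.90 and that of Slc2a1 and Slc2a4 of 0.82. Insr had 0.76 with Pik3r1 and 0.71 each with Igf1r, Foxo3 and Slc2a12. These are descriptions, since the libraries share groups and differ in mitochondrial share and GC correlation. The genes whose level was most like that of Irs2 were Sik1 (0.95), a salt-inducible kinase induced by cAMP, Fosl2 (0.92), a FOS-family transcription factor, Nr4a3 (0.91), an orphan nuclear receptor of the immediate-early response, Tob2 (0.90), an antiproliferative protein of the BTG family, and Frmd5 (0.87). They were picked over the libraries that also show the Irs2 difference, so their fold changes are a description and not a test. For exercise at ZT0 the log2 fold changes were 2.70 ± 0.28 for Sik1, 3.24 ± 0.31 for Nr4a3, 1.63 ± 0.19 for Tob2, 1.38 ± 0.22 for Fosl2 and 0.96 ± 0.21 for Frmd5 (SE). At ZT12 they were 1.29 ± 0.27 for Sik1, 2.35 ± 0.31 for Nr4a3, 0.24 ± 0.19 for Tob2, 0.69 ± 0.22 for Fosl2 and 0.35 ± 0.21 for Frmd5.

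Around these 10 genes, 7 lists of pathway genes were examined, with 112 different genes tested. For exercise at ZT0, 4 of them (3.57%) passed, against 1.08% of all genes, and for time of day in sedentary mice 8 (7.14%), against 5.2%. The lists were chosen with earlier results of these data known, so these shares are descriptions and not a test. Of 22 receptor ligands and proximal regulators, 20 of PI3K and AKT, 17 of the mTOR branch, 16 FOXO relatives and FOXO-responsive genes, 18 of GLUT4 vesicle traffic, 11 of other glucose entry and 9 regulators linked to Slc2a4 transcription, none passed for exercise at ZT12, for time of day in exercised mice or for the interaction. The list medians for exercise at ZT12 lay between -0.15 and 0.27, against 0.06 for all genes.

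At ZT0, exercise raised 1 gene of the mTOR branch, 1 of the FOXO list and 1 of the Slc2a4 regulators, and lowered 1 proximal regulator, where 0.791% of all genes were higher and 0.288% lower. Ddit4, an inhibitor of mTORC1, averaged 113 ± 32.9 CPM in ZT0-EX and 27.2 ± 5.59 in ZT0-SED (log2 fold change 2.07 ± 0.29, SE, edgeR adjusted p = 0.000131), and it passed under all 16 alternatives. Klf15, a transcription factor that can raise Slc2a4 in other cells, averaged 47.4 ± 15.4 CPM in ZT0-EX and 17.9 ± 5.36 in ZT0-SED (1.40 ± 0.21, adjusted p = 0.000317), and passed under 13. Slc2a4 itself was at 0.07 ± 0.23 there. Fbxo32, the FOXO-responsive ubiquitin ligase atrogin-1, averaged 118 ± 27.2 CPM in ZT0-EX and 54.4 ± 19.7 in ZT0-SED (1.16 ± 0.28, adjusted p = 0.0389). It missed the threshold without the libraries with skeletal muscle transcripts (0.78, edgeR adjusted p = 0.54). That fit holds ZT0-EX hearts of flow cell 1 only, and on flow cell 1 alone Fbxo32 was at 0.76. Socs1, a suppressor of cytokine signalling, fell by 1.37 ± 0.32 on the log2 scale (adjusted p = 0.0306). It was at or under 1.37 CPM in every heart. Socs1 too missed the threshold without the libraries with skeletal muscle transcripts. Its fall was larger there but less precisely estimated (log2 fold change -1.958 ± 0.538, SE, edgeR adjusted p = 0.235).

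In sedentary mice at ZT12 against ZT0, 2 of 20 PI3K and AKT genes were higher in the fit to all hearts, as were 2.46% of all genes. These were the Tribbles pseudokinase Trib1 (0.63 ± 0.15, edgeR adjusted p = 0.0148) and Pik3ip1, whose product binds and restrains PI3K (0.73 ± 0.21, adjusted p = 0.0465). Higher also were Sesn1 (0.88 ± 0.16, adjusted p = 0.00223) and Deptor (0.75 ± 0.19, adjusted p = 0.0236), both inhibitors of mTOR signalling, Fbxo32 (1.04 ± 0.28, adjusted p = 0.0329), Klf15 (0.97 ± 0.21, adjusted p = 0.00761) and the histone deacetylase Hdac4 (0.74 ± 0.21, adjusted p = 0.0427). Socs1 fell by 2.00 ± 0.36 on the log2 scale (adjusted p = 0.00173), from low levels. It averaged 0.262 CPM in ZT12-SED, with a lowest value of 0, and 1.01 CPM in ZT0-SED. Socs1 passed under 10 of the 13 alternatives that kept it. It missed the threshold on flow cell 2 alone (edgeR adjusted p = 0.15) and with no flow cell term (0.192), and DESeq2 gave it no adjusted p. None of the 18 GLUT4 traffic genes and none of the 11 other glucose entry genes passed in any comparison. None of these 7 higher genes passed on flow cell 2 alone or with library totals and no TMM scaling. On flow cell 1 alone Klf15 (edgeR adjusted p = 0.14), Trib1 (0.24) and Pik3ip1 (0.33) missed the threshold too. Sesn1, Deptor, Fbxo32 and Hdac4 passed there. Without the 3 least correlated libraries, Pik3ip1 (edgeR adjusted p = 0.123), Deptor (0.0587), Fbxo32 (0.158) and Hdac4 (0.0686) also missed the threshold. Pik3ip1 passed under 7 of 16 alternatives, and missed the threshold without the libraries with skeletal muscle transcripts too (adjusted p = 0.0537), and Sesn1 passed under 14.

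**Figure D5:**
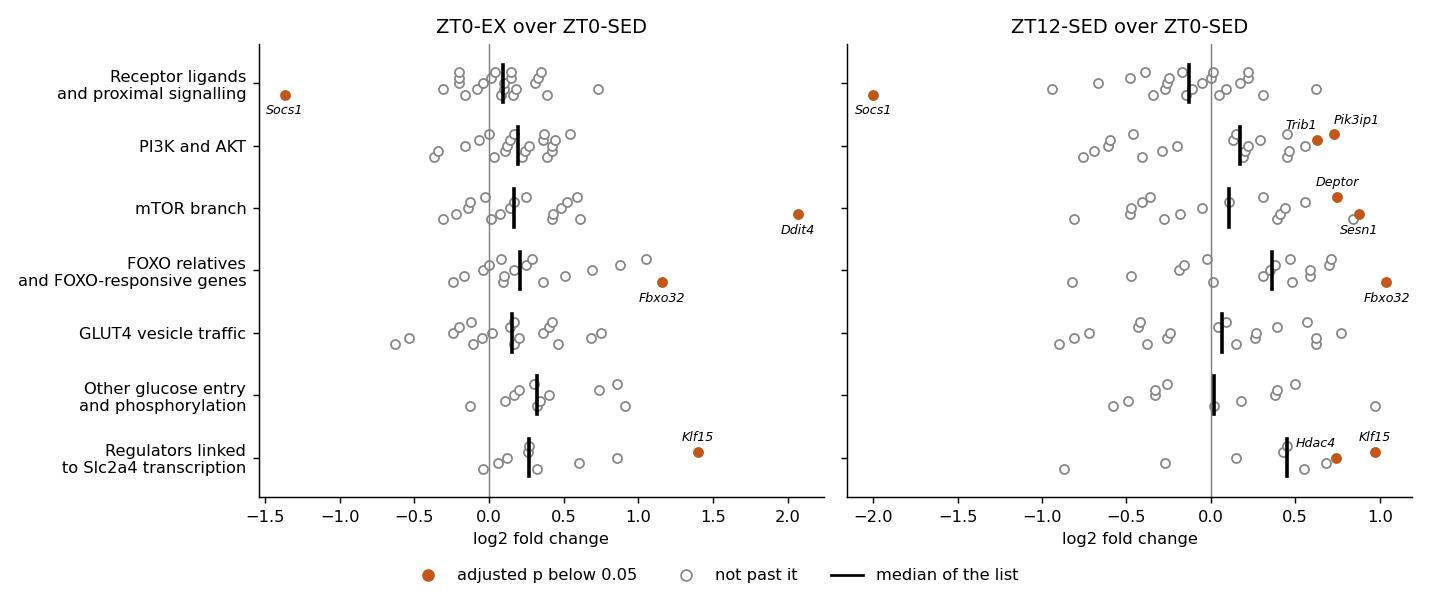
Log2 fold change of every tested gene of the 7 pathway lists for exercise at ZT0 and for time of day in sedentary mice, with filled and named points for those past an adjusted p of 0.05 and a bar at each list's median. Ddit4 (2.07) and Klf15 (1.40) stand highest among named points for exercise at ZT0, and Fbxo32 (1.04) and Klf15 (0.97) for time of day.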

How the data were processed

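The authors deposited raw counts of reads per gene for 24 libraries of mouse heart RNA, with no normalization. Per the labels' protocols, RNA was isolated with Trizol, poly-A selected and made into TruSeq libraries. Per the submitters' processing notes, Trimmomatic 0.39, HISAT2 2.2.1, featureCounts 2.0.1 and the GRCm39 build were used. Their settings, the use of strand and the annotation release are not given in those sources. Symbols, lengths and GC content came from the GENCODE annotation of GRCm38 through the Ensembl identifiers. The 257 identifiers that had no symbol there took 0.00128% of counts.

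The test was edgeR's (version 4.0.16, R 4.3.3) quasi-likelihood F test, with filterByExpr (15294 genes kept), TMM and robust estimates. All 24 libraries entered, the terms were group and flow cell, and 19 residual degrees of freedom remained. Adjusted p is Benjamini-Hochberg over all genes tested, with a threshold of 0.05. Differences within a flow cell are of mean log2 CPM with a prior count of 2, and their adjusted p is from a separate fit of its libraries. The procedure was tested on simulated data. Alternatives used DESeq2 1.42.0, limma 3.58.1 and sva 3.50.0, other scalings, filters, terms and subsets of libraries.

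The genes, pathway lists and tests were chosen with earlier results of these data known. From the lists, every gene past the threshold in an exercise comparison or the interaction was named, and up to 3 per list with the smallest p in the time-of-day comparisons. For Irs2, the 5 genes with the highest correlation among those averaging a log2 CPM of 1 or more were named. A result that the lists first held is not reported here, and the list counts and medians leave it out.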

Additional observations from a re-analysis of the deposited data

Results flagged for a closer look

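Irs2 in ZT12-SED 3 was at 4.06 CPM, below the other 5 ZT12-SED hearts at 7.29 to 9.22 CPM. On the log2 scale its gap to the nearest heart was 0.712 of the group's range, above Dixon's 95% limit for 6 samples. It was the single case among 40 groups of 6 hearts (10 genes in 4 groups), where chance flags about 1 group in 20.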

How the results depend on the processing

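Of 790 values of the 10 genes under alternatives, 715 kept their direction and side of the threshold, 4 lost significance, 16 gained it and 55 turned sign, none of these past the threshold in either fit. For exercise at ZT0, 2 genes passed with DESeq2, with 2 surrogate variables, with the compared groups alone and without the 3 least correlated libraries, and 0 on flow cell 2 alone. For exercise at ZT12, 1 passed with DESeq2 and without those 3 libraries. For time of day in exercised mice, 2 passed with 2 surrogate variables and 1 without those 3 libraries. For time of day in sedentary mice, 1 passed with library totals, 4 on flow cell 1 alone and without the libraries with skeletal muscle transcripts, and 0 on flow cell 2 alone. Flow cell fits have fewer samples, and otherwise the cause was not tested.

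Counts over all genes were 165 for exercise at ZT0 (13 on flow cell 2 alone to 568 with surrogate variables), 45 at ZT12 (4 on flow cell 2 to 226 with DESeq2), 252 for time of day in exercised mice (17 on flow cell 2 to 1606 with surrogate variables) and 795 in sedentary mice (35 on flow cell 2 to 6552 on flow cell 1). Library totals without TMM moved the median of all genes to 0.196 for exercise at ZT12, 0.118 for the interaction and -0.178 for time of day in sedentary mice.

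Signs turned as follows (log2 fold change). With library totals, exercise at ZT12: Insr 0.15, Pik3r1 0.039 and Slc2a12 0.085, and time of day in sedentary mice: Irs1 -0.15, Foxo1 -0.12 and Slc2a12 -0.20. With 2 surrogate variables, exercise at ZT12: Insr 0.072, Pik3r1 0.014, Slc2a1 -0.10, Slc2a4 -0.12 and Slc2a12 0.030, exercise at ZT0: Slc2a4 -0.018, interaction: Slc2a4 -0.10, time of day in exercised mice: Igf1r 0.0905, and in sedentary mice: Irs1 -0.42, Slc2a1 0.16, Slc2a4 0.029 and Slc2a12 -0.18. With GC offsets, exercise at ZT12: Insr 0.073, Foxo3 -0.47, Slc2a1 -0.087, Slc2a4 -0.045 and Slc2a12 0.011, interaction: Slc2a4 -0.10, and time of day in sedentary mice: Foxo1 -0.0074, Slc2a1 0.21, Slc2a4 0.048 and Slc2a12 -0.11. On flow cell 1 alone, exercise at ZT0: Slc2a4 -0.079, interaction: Slc2a1 0.13, and time of day in exercised mice: Insr 0.12 and Igf1r 0.071. On flow cell 2 alone, exercise at ZT12: Insr 0.13 and Slc2a12 0.30, interaction: Slc2a4 -0.056, time of day in exercised mice: Slc2a1 0.19 and Slc2a4 0.11, and in sedentary mice: Irs1 -0.29, Foxo1 -0.0084, Slc2a1 0.28, Slc2a4 0.16 and Slc2a12 -0.15. Without the 3 least correlated libraries, exercise at ZT12: Insr 0.23, Irs1 0.067, Pik3r1 0.17, Slc2a1 -0.037, Slc2a4 -0.094 and Slc2a12 0.13, interaction: Slc2a4 -0.17, time of day in exercised mice: Insr 0.044 and Igf1r 0.092, and in sedentary mice: Irs1 -0.25 and Slc2a12 -0.23. Without the libraries with skeletal muscle transcripts, exercise at ZT12: Foxo3 -0.040, and time of day in exercised mice: Insr 0.067.

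Replicate numbers are not stated to pair mice. For 36 same-numbered pairs of libraries, deviations from the mean of a group on its flow cell were correlated. The median correlation was 0.00651, with a range of -0.445 to 0.781 and 15 pairs over 0.1. Of 24 libraries, 10 correlated best with their own number. With a replicate block the calls of the 10 genes did not change (Irs2 at ZT0 2.97), and counts over all genes were 31 for exercise at ZT12, 160 at ZT0, 0 for the interaction, 220 for time of day in exercised mice and 608 in sedentary mice. Low counts limit Slc2a12 and, in sedentary hearts, Irs2. They also limit Slc2a1 in the ZT12-SED hearts of flow cell 1 (22, 33 and 74 counts).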

Other observations

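The ZT0-SED hearts differed among themselves in several of these genes at once. Insr was at 77.0, 72.7 and 86.8 CPM in replicates 1, 2 and 6 and at 41.9, 28.5 and 34.0 CPM in replicates 3, 4 and 5. Igf1r, Irs1, Pik3r1, Foxo1 and Slc2a12 were also higher in replicates 1, 2 and 6 than in replicates 3, 4 and 5, with no overlap. How many of all genes separate these sets of hearts was not counted. The split is therefore not shown to be particular to these genes. Both sets of hearts include both flow cells. On flow cell 1 mitochondrially encoded genes took 34.2% and 32.4% of counts in replicates 1 and 2 and 25.5% in replicate 3. Their GC correlations were -0.34, -0.52 and 0.26. On flow cell 2 the shares were 23.7% in replicate 6 and 8.36% and 18.8% in replicates 4 and 5. GC correlations there were 0.58, 0.59 and 0.55. The genes of the split have a GC content of 45.6% to 50.3%, and the others examined 54.7% to 57.7%. Among those others, Foxo3, Slc2a1 and Slc2a4 overlapped between the sets. Irs2, at 56.6% GC, met only at 3.25 CPM. It was at 3.56, 3.25 and 4.2 CPM in replicates 1, 2 and 6 and at 2.12, 2.5 and 3.25 CPM in replicates 3, 4 and 5. This split was seen after the values were known, and neither it nor its link to these measures was tested.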
